A study of Mus musculus with 2 samples.

Results

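Type B and non-A intercalated cells of the mouse kidney were chosen by a rule on UMIs, the distinct transcript molecules counted in each cell. A barcode was kept with 500 or more UMIs, 200 or more genes detected, and a mitochondrial share under 50%. A kept cell was a member where Atp6v1g3, an intercalated cell subunit of the proton pump, had at least 3 UMIs, where the principal cell genes Aqp2, Aqp3, Hsd11b2 and Fxyd4 made up less than 0.3% of its UMIs, and where Slc26a4, Insrr and Hmx2 together had more UMIs than the type A genes Slc4a1, Aqp6 and Kit. The rule found 274 cells among 11607 kept barcodes and 14888 barcodes in all, with 143 of 4371 kept barcodes in the wild type library and 131 of 7236 in the knockout library. The mirrored rule, with the type A genes ahead, gave 134 wild type and 333 knockout type A cells for comparison, and 12 and 27 cells had equal UMIs of both trios and entered neither group.

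The wild type (WT) library came from a control mouse kidney and the knockout (KO) library from Kif3aΔTub, in which the gene for the kinesin motor subunit Kif3a, needed to build the primary cilium, is deleted in kidney tubules. Both were taken at 5 weeks of age, and the driver of the deletion and the number of mice behind a library are not given in the sources used here. Cells were released with a cold-active protease, dead cells were removed, and droplet libraries that read the 3' end of transcripts were made. There was 1 library per genotype, so no replicate error could be measured, no test between genotypes was made, and every interval below is a 95% interval for counting error only.

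The collecting duct and connecting tubule set the final acidity of the urine through intercalated cells. Type A cells secrete acid with an apical proton pump and return bicarbonate to blood through the exchanger Slc4a1. Type B cells work in the opposite sense: pendrin, the product of Slc26a4, exchanges luminal chloride for bicarbonate at the apical membrane, and non-A, non-B cells carry pendrin and the pump at the same pole. Insrr encodes a receptor known as a sensor of alkaline pH, Hmx2 a homeobox transcription factor, and Foxi1 the forkhead factor on which intercalated cells and their pump genes depend.

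The promoters of Slc26a4, which names these cells, and of Atp6v1b1, the B1 subunit of the pump whose level is given below, are shown because both genes were lower in the KO members. Each is the 250 bases before the RefSeq start, on the strand of the gene, in build GRCm38.p6. Capitals mark TGTTTAC, a forkhead core motif, searched on both strands. It was present in the Atp6v1b1 window, beginning 98 bases before the start, and absent from the Slc26a4 window; among all 32851 promoter windows of that length 3.17% held it, and among 22 windows of 17 pump list genes 1 did.
Slc26a4, chr12:31559985-31560234, minus strand: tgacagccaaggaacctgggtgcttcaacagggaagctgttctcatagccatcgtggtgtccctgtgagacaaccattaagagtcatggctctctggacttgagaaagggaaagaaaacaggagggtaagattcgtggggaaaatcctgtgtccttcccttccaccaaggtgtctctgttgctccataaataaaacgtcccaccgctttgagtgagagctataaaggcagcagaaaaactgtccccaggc
Atp6v1b1, chr6:83742767-83743016, plus strand: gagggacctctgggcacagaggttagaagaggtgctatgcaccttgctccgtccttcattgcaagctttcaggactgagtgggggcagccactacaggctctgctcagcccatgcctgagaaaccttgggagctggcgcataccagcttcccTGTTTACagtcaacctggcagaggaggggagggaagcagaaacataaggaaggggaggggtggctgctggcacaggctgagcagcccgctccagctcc

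The members were deep cells in both libraries. Median UMIs were 12211 in WT and 12945 in KO, and median genes 3215 and 3517. The summed UMIs of nuclear-encoded genes, used as the denominator of every level in CPM (the UMIs of a gene scaled to a common library total of nuclear UMIs), were 1258010 and 1744860. Mitochondrial UMIs differed between the libraries, with a median of 27.4% in WT members and 9.85% in KO members, and the same gap stood over all kept barcodes, 26.8% against 7.55%. In all, 20 barcodes occurred in both libraries and none of them was a member. Scrublet, a doublet caller, marked 52 of the kept WT and 162 of the kept KO barcodes, among them 4 and 2 members, which were kept in the values below. Kif3a was read by 22 UMIs in WT members (17.5 CPM) and 25 in KO members (14.3 CPM), a log2 ratio of -0.29 with an interval from -1.17 to 0.61. Since the libraries read the 3' end, UMIs from outside the deleted part would still be counted, and this value does not check the labels.

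The genes of the rule are given as a description. Slc26a4 had 1211 CPM in WT and 849 CPM in KO members, with a median per cell of 10 and 9 UMIs. Insrr had 622 and 233 CPM, with a median of 5 and 3 UMIs. Hmx2 had 1017 and 1093 CPM, with a median of 6 and 8 UMIs. Of the trio, Insrr differed most between the libraries, while the summed levels of Hmx2 and Atp6v1g3 (4186 and 3977 CPM) were close.

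Most members carried all of the trio. Slc26a4, Insrr and Hmx2 were all detected in 119 of 143 WT members (83.2%, interval 76.1 to 88.9%) and in 90 of 131 KO members (68.7%, 60.0 to 76.5%), and a single gene of the trio in 10 and 19 members. Hmx2 without a UMI of Slc26a4 was seen in 10 WT (6.99%) and 18 KO members (13.7%). To compare detection at equal depth, cells with at least 2000 nuclear UMIs were thinned to 2000, which left out 15 WT and 9 KO members. Slc26a4 was then found in 112 of 128 WT cells (87.5%, interval 80.5 to 92.7%) and 79 of 122 KO cells (64.8%, 55.6 to 73.2%). Insrr was found in 70.3% (61.6 to 78.1%) of the WT and 32.8% (24.6 to 41.9%) of the KO cells, and Hmx2 in 78.1% (70.0 to 84.9%) and 63.9% (54.7 to 72.4%). In type A cells thinned in the same way the shares with Slc26a4 were 2.26% and 1.83%, which the mirrored rule itself keeps low. Slc34a1, a phosphate transporter of the proximal tubule that these cells should lack, was found in 11.7% of the thinned WT and 3.28% of the thinned KO members.

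**Figure D1:**
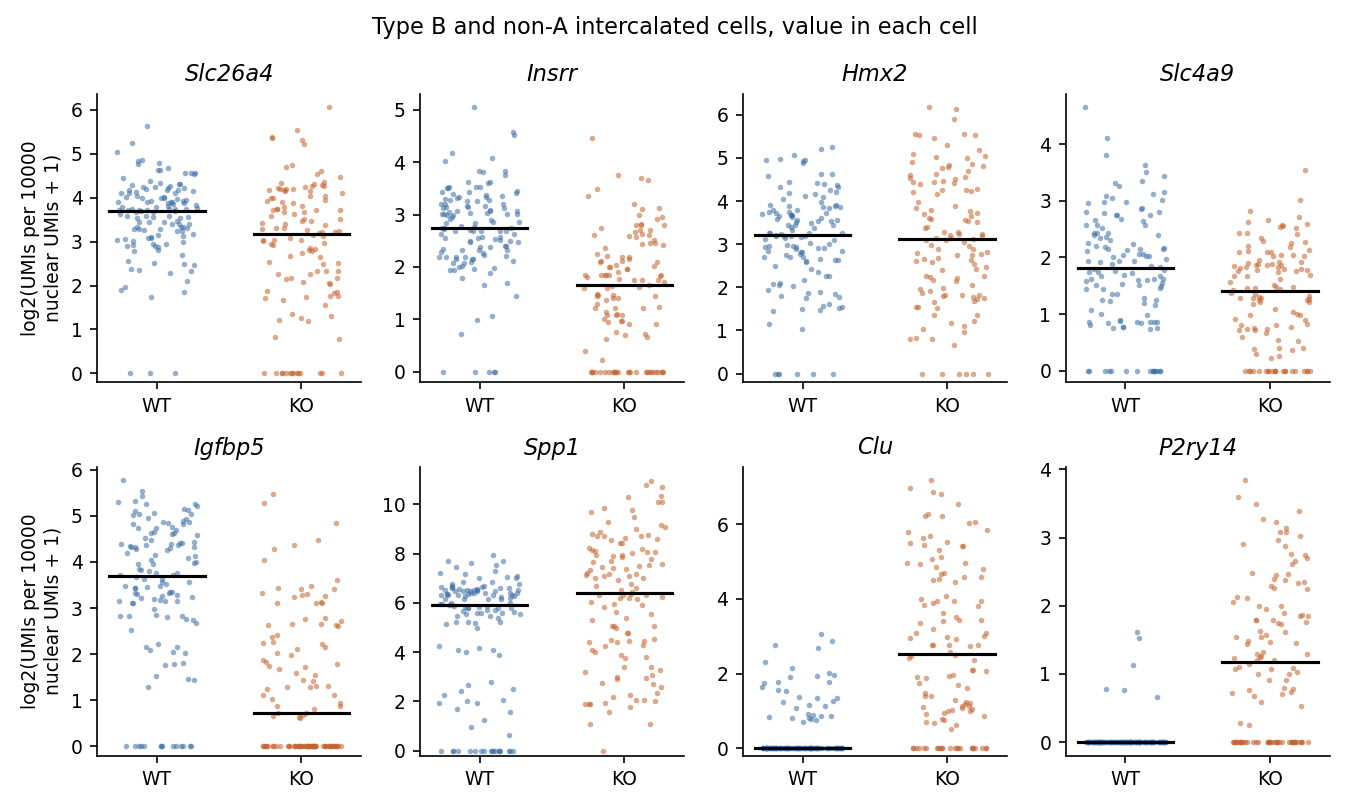
Each dot is a member cell with at least 2000 nuclear UMIs (128 WT, 122 KO); the vertical axis is log2 of UMIs per 10000 nuclear UMIs plus 1 and the black line the median cell. Insrr, Slc4a9 and Igfbp5 sit lower in KO, Hmx2 and Spp1 spread over a wider range there, and Clu and P2ry14 are mostly at 0 in WT.

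The plot of values per cell shows that the libraries also differed in spread. Per 10000 nuclear UMIs, the middle 50% of WT cells held 4.90 to 12.9 Hmx2 UMIs around a median of 8.24, and the middle 50% of KO cells 2.79 to 19.5 around a median of 7.66. For Slc26a4 the medians were 12.1 and 8.04, with quartiles of 7.74 and 16.3 in WT and 3.14 and 14.7 in KO. The ranges of the libraries overlapped for every gene of the trio.

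Some cells lay near the limits of the rule. Inside, 12 WT and 11 KO members led by only 1 or 2 UMIs of the trio, with median depths of 1586 and 2105 UMIs, and the tied cells just outside had median depths of 959 and 1565. Beyond the ties, 4 WT and 32 KO cells had the type A genes ahead by only 1 or 2 UMIs. They count as type A cells and enter the share among sorted cells below. The limit on principal cell genes was passed narrowly in KO: 8 members held 0.2 to 0.3%, 11 cells just outside held 0.3 to 0.4%, and 47 KO cells were left out by this limit alone, against 13 in WT. In the members the principal cell genes themselves differed. Hsd11b2 had 44.5 CPM in WT and 375 CPM in KO, Fxyd4 19.9 and 232 CPM, and Aqp2 19.9 and 87.1 CPM. Aqp3, a glycerol and water channel, went the other way with 425 and 273 CPM, and was found in 55.5% of the thinned WT members against 33.1% of the thinned WT type A cells.

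Type B and non-A cells formed a smaller share of the KO library. They were 3.27% (2.76 to 3.84%) of kept WT barcodes and 1.81% (1.52 to 2.14%) of kept KO barcodes, a ratio of 0.553 (0.433 to 0.706). Among cells sorted to type A or type B they were 51.6% (45.6 to 57.6%) in WT and 28.2% (24.2 to 32.6%) in KO, a ratio of 0.547 (0.428 to 0.698). Type A cells stood at 3.07% of kept WT and 4.60% of kept KO barcodes. With principal cell genes allowed up to 1% the first ratio was 0.690, and with a limit of 0.1% it was 0.456. Among barcodes with 10 to 25% mitochondrial UMIs, a range that both libraries filled, it was 0.704, with an interval from 0.472 to 1.05 that includes equality, and the share among sorted cells gave 0.567 (0.380 to 0.846). Shares of barcodes depend on which cells survived dissociation and on how many other cells were captured, and their part in these ratios was not tested. They also depend on the levels of the rule genes, of which Insrr and Slc26a4 were lower in KO members. The part of those levels was not tested either.

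Across the transcriptome, 6976 nuclear genes had at least 50 UMIs over the members of both libraries and are called measured. Their median log2 ratio of KO over WT was -0.02. At least 2-fold higher in KO were 350 genes (5.02%) and at least 2-fold lower 322 genes (4.62%). These percentages are the background against which the gene groups below are read. With principal cell genes under 0.1%, which left 139 WT and 105 KO members, the counts were 200 and 302, and the part of principal cell RNA in the higher genes was not tested. With all UMIs as the denominator, mitochondrial ones included, every ratio shifted by the gap in mitochondrial UMIs, the median to 0.26 and the counts to 624 and 154.

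The proton pump was lower as a group in KO members. Of 23 listed V-ATPase genes 19 were measured, 17 had ratios below 0 and none passed 2-fold in either direction, with a median of -0.52 beside -0.02 for all genes. The median stayed below 0 under each scaling, at -0.24 with all UMIs and at -0.50 with the median gene set to 0. The lowest ratios were those of Atp6v1c2 and Atp6v1b1, isoforms that mark intercalated cells. Atp6v1c2 had 1955 CPM in WT and 984 CPM in KO (log2 -0.99, interval -1.08 to -0.90). Atp6v1b1, whose promoter is printed above, had 762 and 409 CPM (-0.90, -1.04 to -0.76), and was found in 83.6% of thinned WT and 51.6% of thinned KO members. Other isoforms of intercalated cells lay near the median of the list, Atp6v0d2 with 1230 and 825 CPM (-0.58) and Atp6v0a4 with 1713 and 1177 CPM (-0.54). Among the common subunits, Atp6v1h had 475 and 284 CPM (-0.74) and Atp6v1a 2642 and 1647 CPM (-0.68). The broadly expressed Atp6v1b2, which can replace the B1 subunit, had 89.8 and 88.8 CPM, and Atp6v0d1 53.3 and 69.9 CPM with an interval that includes 0. Atp6ap2, the renin receptor and an accessory subunit of the pump, had 1186 and 666 CPM (-0.83).

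**Figure D2:**
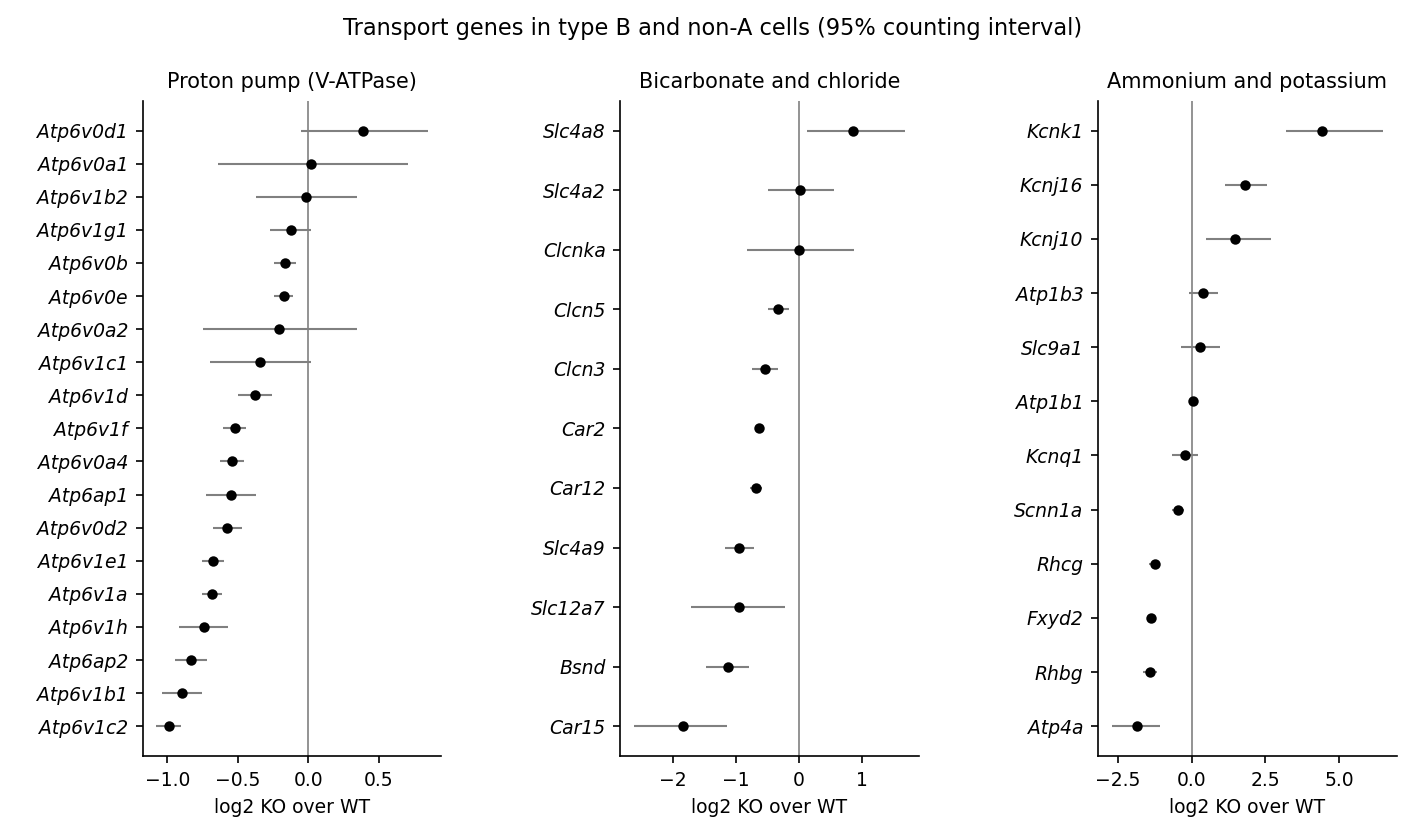
Log2 ratio of KO over WT for measured transport genes in the members, from UMIs summed per library (143 WT, 131 KO cells), with 95% counting intervals as bars; the 3 panels have different horizontal scales. The intercalated pump isoforms, Car15, Bsnd, Rhbg and Rhcg lie left of 0, while Kcnk1, Kcnj16 and Kcnj10 lie right of it.

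Bicarbonate and chloride handling was lower in most of its measured genes. Of 20 listed genes 12 were measured, with a median of -0.58, 9 below 0, none 2-fold higher and 2 at least 2-fold lower. Those were Car15 and Bsnd. Car15, a membrane-bound carbonic anhydrase, had 47.7 and 13.2 CPM (-1.84). Bsnd, which encodes barttin, a chloride channel subunit, had 152 and 69.3 CPM (-1.13). Of the 12, 2 reached the minimum sum of UMIs only through WT, Car15 among them. Of the other 10, 1 was at least 2-fold lower and none at least 2-fold higher. The basolateral exchanger Slc4a9 (AE4), typical of type B cells, had 306 CPM in WT and 159 CPM in KO (-0.94, -1.17 to -0.72). Car2, the cytosolic carbonic anhydrase, stood at 3625 and 2349 CPM (-0.63) and Car12 at 1628 and 1017 CPM (-0.68). Slc4a8, the sodium-driven chloride-bicarbonate exchanger that pairs with pendrin in sodium chloride uptake, was higher in KO, with 21 UMIs (16.7 CPM) and 54 UMIs (30.9 CPM), and its log2 ratio of 0.87 had an interval from 0.14 to 1.69. Cftr had 1 UMI in WT members and 42 UMIs in KO members, too few for the group, with a log2 ratio of 4.35 whose interval ran from 2.36 to 10.3. Slc26a7, a type A transporter, had no UMI in the members of either library.

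Ammonium and potassium genes differed in both directions, 3 of 13 measured being at least 2-fold higher and 4 at least 2-fold lower around a median of 0.04; Kcnk1 and Kcnj10 reached 50 UMIs only through KO and Atp4a only through WT. The ammonia channel Rhbg had 355 and 134 CPM (-1.41, -1.64 to -1.18), and Rhcg 490 and 206 CPM (-1.25). Rhbg was found in 59 of 128 thinned WT and 22 of 122 thinned KO members. The gastric-type proton-potassium pump subunit Atp4a had 50 UMIs in WT and 19 UMIs in KO (39.7 and 10.9 CPM), and the sodium pump modulator Fxyd2 10785 and 4165 CPM (-1.37). Higher in KO were the potassium channels Kcnk1, with 3.18 and 76.8 CPM (4.43), Kcnj16, with 17.5 and 61.9 CPM (1.80), and Kcnj10, with 7.95 and 22.9 CPM (1.48). The level of Kcnk1 over all kept cells was 26.9 CPM in WT and 157 CPM in KO, and the part of free RNA in its difference was not tested.

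Receptors and kinases that tune these cells included some of the lowest and highest transport regulators. Of 18 measured members of the list 2 were at least 2-fold higher and 3 lower, with a median of -0.33. P2ry14 reached 50 UMIs only through KO and Casr only through WT. Of the other 16, 1 was at least 2-fold higher and 2 lower. Oxgr1, the receptor for 2-oxoglutarate that stimulates type B transport, had 304 and 88.3 CPM (-1.78, -2.06 to -1.51) and was found in 37.5% of thinned WT and 12.3% of thinned KO members, and type A cells had 418 and 90.2 CPM. Wnk1, a kinase upstream of chloride cotransport, had 595 and 239 CPM (-1.31), and Casr, the calcium-sensing receptor, 33 and 17 UMIs (26.2 and 9.74 CPM). P2ry14, a receptor for UDP-glucose known as an inflammatory sensor of type A cells, had 6.36 CPM in WT and 193 CPM in KO members (4.84, 3.93 to 6.14). At equal depth it was found in none of 128 WT members, with an exact interval up to 2.84%, and in 33.6% (25.3 to 42.7%) of the KO members, while type A cells had it in 36.8% and 60.9%. Among the 105 WT and 97 KO members with no UMI of Slc4a1, Aqp6 or Kit, a subset chosen after the data were seen, P2ry14 stood at 6.84 and 199 CPM.

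Transcription factors of intercalated and collecting duct fate differed in both directions. Of 19 measured factors 4 were at least 2-fold higher and 1 lower, with a median of 0.07. Foxi1 had 559 CPM in WT and 430 CPM in KO (-0.38, -0.53 to -0.23), and was found in 59.4% and 56.6% of thinned members. Tfcp2l1, which works with Foxi1, had 1575 and 1127 CPM (-0.48), and Esrrg, a nuclear receptor of mitochondrial genes, 54.1 and 26.9 CPM. Higher were Elf3, with 46.1 and 118 CPM (1.35), Ehf, with 34.2 and 80.2 CPM (1.22), Sox4, with 138 and 313 CPM (1.19), and Pax2, with 21.5 and 44.1 CPM (1.02), all factors of simple epithelia or kidney development. Hmx3, the neighbour and relative of Hmx2, had 13.5 and 22.9 CPM, with an interval that includes 0. Of the Notch ligands and receptors, which sort principal from intercalated fate, Jag1 had 226 and 146 CPM (-0.63). Dll1 had 75.5 and 62.5 CPM (-0.27, -0.68 to 0.14), Dll4 31.0 and 10.9 CPM (-1.49) and Notch1 12.7 and 38.4 CPM (1.56). Of 8 measured genes of the Notch list, 1 was at least 2-fold higher, Notch1, and 1 lower, Dll4. Notch1 reached the minimum sum of UMIs only through KO and Dll4 only through WT. Of the other 6, none passed 2-fold in either direction.

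Energy metabolism was lower over most of its genes. Of 30 nuclear genes of the respiratory chain 29 had ratios below 0 and 1, Ndufs1, was at least 2-fold lower (285 and 126 CPM), with a median of -0.51. All 13 mitochondrial-encoded genes were lower per nuclear UMI, 12 of them at least 2-fold, with a median of -1.44. This is the lower mitochondrial share of KO members given above, in another form. These genes summed to 387578 and 141823 CPM in the members, beside 404957 and 114888 CPM over all kept cells. The nuclear respiratory chain genes summed to 39882 and 29103 CPM, beside 34878 and 18907 CPM over all kept cells. Fatty acid oxidation had a median of -0.51 over 19 measured genes, with 3 at least 2-fold lower, led by Fabp3, a fatty acid carrier, at 574 and 151 CPM (-1.92). Among 16 glycolytic genes Ldha was higher (224 and 469 CPM, 1.06) and Ldhb lower (5460 and 3140 CPM, -0.80), while the lactate carrier Slc16a7 had 500 and 144 CPM (-1.79). Members with 10 to 25% mitochondrial UMIs, 53 in each library, gave medians of -0.19 for the respiratory chain, -0.62 for mitochondrial-encoded genes and -0.53 for fatty acid oxidation. The first and second were nearer to 0 than over all members. Since these members were chosen by their mitochondrial share, the second cannot be read apart from that choice. The part of the mitochondrial share in the first was not tested.

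Genes of tubular injury were higher in KO members. Of 26 listed genes 19 were measured, 15 were at least 2-fold higher and none at least 2-fold lower, with a median of 1.96, which was 1.21 among members with 10 to 25% mitochondrial UMIs. Of the 19, Lcn2, Krt19, S100a6, Cp and Cdkn1a reached 50 UMIs only through KO, where they were high; of the other 14, 10 were at least 2-fold higher. Clu, a secreted chaperone, had 71.5 CPM in WT and 2888 CPM in KO (5.33, 5.03 to 5.65), and was found in 10.2% of thinned WT and 59.0% of thinned KO members. Cd24a, a surface protein of injured tubules, had 26.2 and 586 CPM (4.46), in 4.69% and 49.2% of thinned members. Krt8 and Krt18, the keratins of simple epithelia, had 134 and 452 CPM (1.75) and 190 and 545 CPM (1.52), and Cdkn1a, the cell cycle inhibitor p21, 10.3 and 191 CPM (4.16). Krt7 stood at 905 and 867 CPM, and Anxa5 was lower, with 649 and 358 CPM (-0.86). Havcr1, the proximal injury marker KIM-1, had 1 UMI in WT and none in KO.

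Some of these sums rested on few cells. Spp1, which encodes osteopontin, had 6246 CPM in WT and 22914 CPM in KO (1.88), but the median cell held 58.6 and 83.4 UMIs per 10000, and the highest KO cell 2003 against 248 in WT. Lcn2, the iron-binding injury marker NGAL, had no UMI in WT and 1588 CPM in KO, at least 666-fold higher, and 75.0% of its KO UMIs came from 1 cell. Without that cell Lcn2 stood at 398 CPM, and it was found in 22.1% of thinned KO members. Gdf15, a stress cytokine linked to wasting, had no UMI in WT and 75.7 CPM in KO, of which 40.2% lay in 1 cell, and Atf3, a stress transcription factor, had 0.795 and 72.8 CPM with 49.6% in 1 cell. Over all kept cells of the KO library Lcn2 stood at 4518 CPM and Clu at 3603 CPM, above the members.

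**Figure D3:**
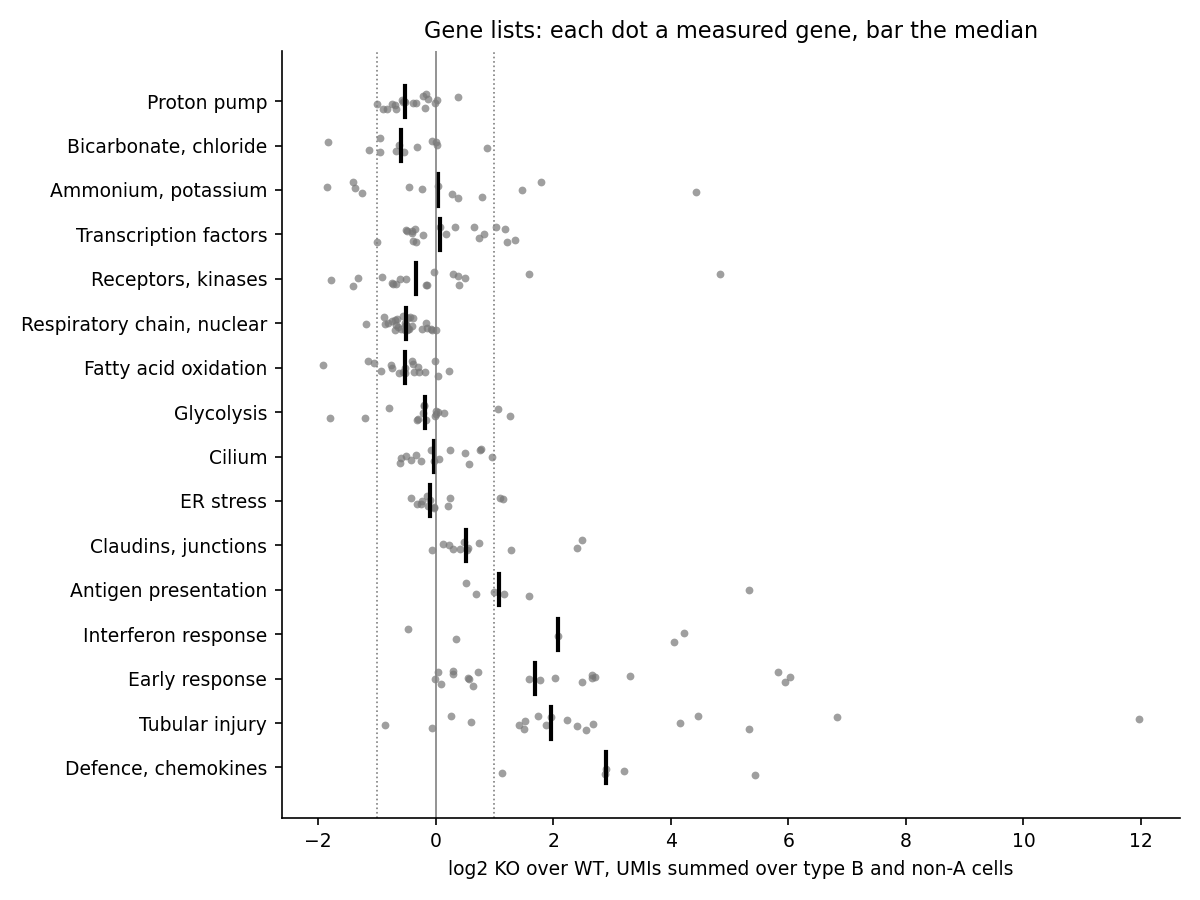
Log2 ratio of KO over WT in the members for every measured gene of 16 lists (dots) with the list median (black bar); dotted lines mark 2-fold. The proton pump, bicarbonate, respiratory chain and fatty acid lists lie mostly left of 0, and the injury, early response and defence lists mostly right of it, with Lcn2 farthest at 11.96.

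Early response genes were also mostly higher. The early response list held immediate early genes and genes linked to tissue dissociation. In it 11 of 20 measured genes were at least 2-fold higher and none lower, with a median of 1.69. That median was 0.78 among members with 10 to 25% mitochondrial UMIs. The part of dissociation in these ratios was not tested. Of the 20, 6 reached 50 UMIs only through KO, and of the other 14, 6 were at least 2-fold higher. Jun had 83.5 and 287 CPM (1.78), Junb 19.9 and 128 CPM (2.66), Egr1 21.5 and 89.4 CPM (2.04) and Klf6 30.2 and 193 CPM (2.66). Of 29 listed defence genes 5 were measured, and 3 of these, Pigr, Cxcl16 and Tnfrsf12a, reached 50 UMIs only through KO. Defb1, an antimicrobial peptide of type A cells, had 115 and 1072 CPM (3.21), the chemokine Cxcl16 10.3 and 78.5 CPM (2.88), and the receptor Tnfrsf12a 7.95 and 61.9 CPM (2.90). In the antigen presentation list H2-D1 had 106 and 319 CPM (1.59). Of 15 listed interferon genes 5 were measured, 3 of them only through KO. Of these, 68.4% of the KO UMIs of Irf7 and 49.5% of those of Bst2 came from 1 cell each, while Ifitm3, with 15.1 and 289 CPM, was found in 24.6% of thinned KO members.

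Claudins and secreted factors completed the comparison. Cldn3, Cldn4 and Cldn7, which seal the paracellular path, had 62.8 and 333 CPM (2.40), 31.0 and 175 CPM (2.48) and 219 and 533 CPM (1.28), while Cldn8, which pairs with Cldn4, had 226 and 248 CPM (0.13, -0.09 to 0.35). Of 24 secreted factors linked to muscle wasting, the subject named in the title of the study, 5 were measured, and Lcn2, Gdf15 and Tgfb2 reached 50 UMIs only through KO. The other two were Spp1 and Igfbp5, whose values are given with the injury genes and the lowest genes. Il6, Tnf, Mstn and Inhba had no UMI in members of either library. ER stress genes had a median of -0.09 with 2 of 13 at least 2-fold higher, Atf4 (38.2 and 84.8 CPM) and Ddit3 (23.8 and 51.6 CPM). Cilium genes had a median of -0.02 over 15 measured, with none past 2-fold.

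The genes with the largest differences were taken by a rule of size. Among the 12 highest with at least 50 CPM in KO were Fgg, Tmem158, Klf4, Socs3, Nupr1, Sytl2, Ly6a, Pigr, Clu, Marcksl1 and P2ry14. Fgg, the gamma chain of fibrinogen, had no UMI in WT and 326 UMIs in 24 KO members (187 CPM), at least 78.3-fold higher. Ly6a, which encodes the surface antigen Sca-1, had 34.2 and 1652 CPM (5.58, 5.16 to 6.06). The cytokine feedback gene Socs3 had 0.795 and 67.1 CPM, and Klf4, an epithelial transcription factor, 0.795 and 77.9 CPM. Nupr1, a stress-induced chromatin protein, had 2.38 and 149 CPM. Pigr, which carries immunoglobulins across epithelia, had 0.795 and 51.0 CPM and was found in 20 KO members. Type A cells of the KO library held 1097 CPM of Tmem158 beside 166 CPM in the members, and 115 CPM of Fgg. The log2 ratios in type A cells ran from 0.84 for P2ry14 to 8.13 for Fgg, with 6.80 for Socs3. Over all kept KO cells Ly6a (1876 CPM), Socs3 (123), Marcksl1 (120), Sytl2 (67.1), Tmem158 (179) and Clu (3603) stood above the members. Fgg, Klf4, Nupr1, Pigr and P2ry14 stood below them. The part of free RNA in these differences was not tested.

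The 12 lowest were Rorb, Gng11, Steap2, Malrd1, Cacna2d1, Anpep, Tmem61, Pde7a, Tbc1d24, Acot3, Pclo and Igfbp5. Igfbp5, a secreted binder of insulin-like growth factors, had 1518 CPM in WT and 348 CPM in KO members (-2.12, -2.26 to -1.99). It was found in 75.0% of thinned WT and 33.6% of thinned KO members, and in 4.51% and 3.67% of type A cells. Its sums in type A cells were 75.7 and 33.6 CPM (-1.17). Tmem61 had 459 and 84.8 CPM (-2.43), the G protein subunit Gng11 191 and 28.7 CPM (-2.72), Malrd1 209 and 35.5 CPM (-2.55) and the acyl-CoA thioesterase Acot3 222 and 48.7 CPM (-2.18). Type A cells had log2 ratios of -2.15 for Tmem61, -2.46 for Gng11, -2.55 for Malrd1 and -3.20 for Acot3. They had -2.64 for Rorb, -2.52 for Tbc1d24, -1.97 for Anpep, -1.63 for Steap2, -1.16 for Pde7a and -0.78 for Pclo. Cacna2d1, a calcium channel subunit, had 63.6 and 10.9 CPM in the members and 4.12 and 2.80 CPM in type A cells. Rorb, a nuclear receptor, had 66 UMIs in only 20 WT members and 13 UMIs in KO, so its WT level was that of a minority of cells. Over all kept WT cells Steap2 (173 CPM, beside 122 CPM) stood above the members, and the rest of the 12 stood below them. Over all kept cells Pde7a had 38.7 CPM in WT and 39.8 CPM in KO. The rest of the 12 were lower in KO there too, Steap2 with 52.3 CPM. The part of free RNA in these differences of the lowest genes was not tested.

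The same comparison was made in type A cells. In type A cells 643 of 8650 measured genes (7.43%) were at least 2-fold higher in KO and 368 (4.25%) at least 2-fold lower. The medians of the pump list were -0.52 in the members and -0.55 in type A cells, and those of the respiratory chain -0.51 and -0.83. In the same order, bicarbonate and chloride had -0.58 and -0.53, and fatty acid oxidation -0.51 and -0.53. Injury had 1.96 and 2.35, antigen presentation 1.08 and 1.02, and interferon 2.09 and 2.42. Defence had 2.90 and 1.59, and early response 1.69 and 1.29. For some lists the medians cover different genes. Members and type A cells had 5 and 11 measured defence genes, 5 and 9 interferon genes, and 6 and 12 antigen presentation genes. In the members, 3 of the 5 defence and 3 of the 5 interferon genes reached the minimum sum of UMIs only through KO. The part of these choices in the gaps between the medians was not tested. The signs differed, for example, for receptors and kinases (-0.33 and 0.04) and for Notch (-0.26 and 0.40). Slc4a1, which helped to choose the type A cells, had 994 CPM in the WT and 63.0 CPM in the KO ones, beside 1211 and 849 CPM for Slc26a4 in the members. The differences between the cell types were not tested.

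Within each library, genes outside the rule that stood higher in the members than in type A cells were Ank, Sh2d4b, Igfbp5, Pmp22, Nbea, Tmem163, Stap1, Myo5a, Spink8 and Scg5. The cells were sorted by type, so these ratios are a description. Ank, a pyrophosphate exporter, had 103 CPM in WT members against 2.47 CPM in type A cells, and 75.1 against 1.96 CPM in KO. Spink8, a protease inhibitor gene, was the most abundant, at 2746 against 435 CPM in WT and 1155 against 256 CPM in KO. Stap1, a signalling adaptor, had 595 against 105 CPM and 191 against 33.3 CPM, and Nbea, a vesicle traffic protein, 245 against 11.5 CPM and 286 against 36.7 CPM. Between the libraries, the members' log2 ratios of these 10 genes lay between -2.12 for Igfbp5 and 0.59 for Sh2d4b. Stap1 had -1.64, Spink8 -1.25 and Tmem163 -0.88, while Ank, Pmp22, Nbea, Myo5a and Scg5 lay between -0.45 and 0.33.

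**Figure D4:**
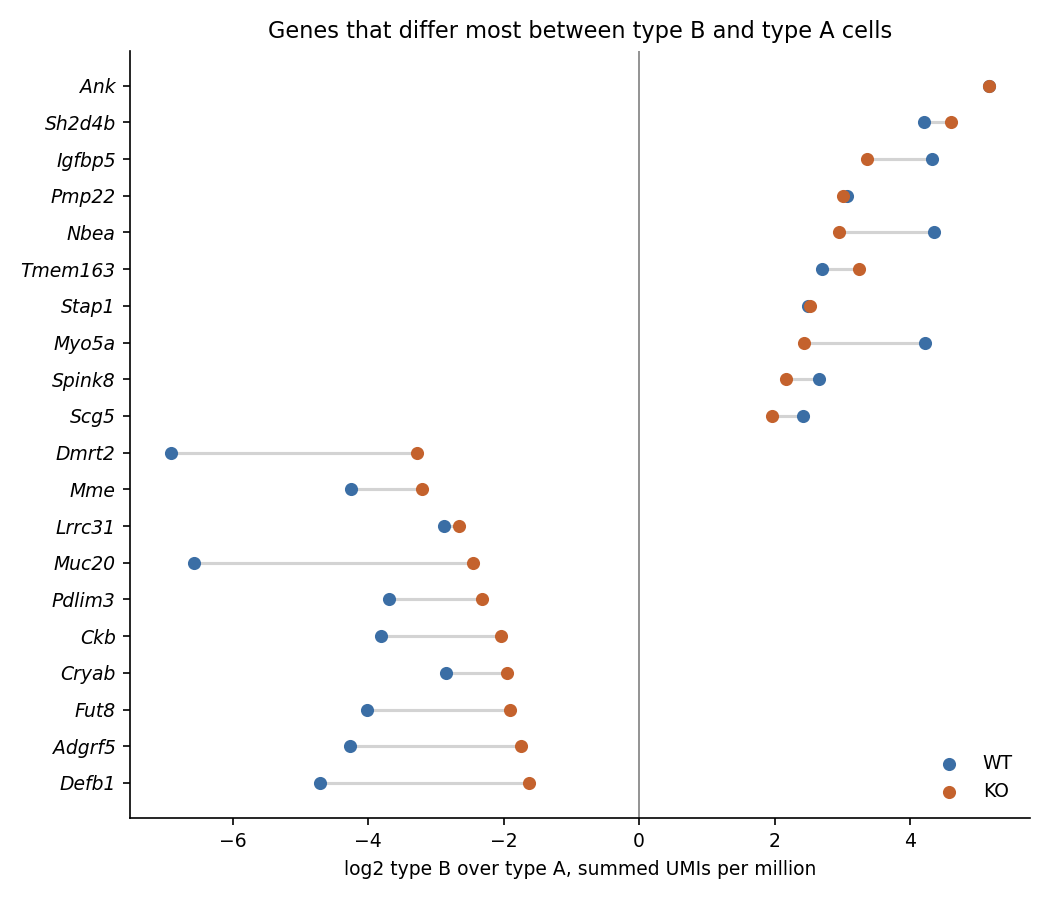
Log2 ratio of members over type A cells within the WT library (blue) and the KO library (orange) for the 10 genes highest and the 10 lowest in both; grey lines join the libraries. All 10 type A genes lie nearer to 0 in KO than in WT, from -6.91 to -3.27 for Dmrt2 and from -4.71 to -1.62 for Defb1.

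On the type A side stood Dmrt2, Mme, Lrrc31, Muc20, Pdlim3, Ckb, Cryab, Fut8, Adgrf5 and Defb1, and each ratio was nearer to 0 in KO. Dmrt2, a transcription factor of type A cells, had 1.59 CPM in WT members and 26.4 CPM in KO members, against 239 and 258 CPM in type A cells. Adgrf5, a receptor that acts on the pump of type A cells, had 59.6 and 181 CPM (1.60, 1.24 to 1.99), against 1152 and 608 CPM. The part of members that carried type A transcripts in these ratios was not tested. Among members with no UMI of Slc4a1, Aqp6 or Kit, which are genes of the rule, Dmrt2 had no UMI in WT and 1 UMI in KO. Mme, the peptidase neprilysin, had 55.8 and 18.4 CPM there, Defb1 96.9 and 928 CPM and Cryab, a small heat shock protein, 95.7 and 241 CPM. Adgrf5 had 52.4 and 117 CPM, a log2 ratio of 1.15 against 1.60 over all members. At least 3 UMIs of the type A trio were present in 14 WT (9.79%) and 18 KO members (13.7%).

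Markers of other cell types were summed in the members and over all kept cells. The 12 proximal tubule genes summed to 3765 CPM in WT and 729 CPM in KO members, beside 51889 and 4149 CPM over all kept cells. The 8 macrophage genes summed to 12.7 and 118 CPM, beside 34.8 and 1920 CPM. C1qa, C1qb, C1qc, Lyz2 and Tyrobp had no UMI in WT members, and 1 KO cell held 31 of the 39 C1qa UMIs. Genes of neutrophils (3) and lymphocytes (5) had no UMI in the members of either library. The 7 endothelial genes summed to 30.2 and 95.7 CPM, beside 186 and 252 CPM, with 70 of the 74 KO UMIs of Emcn in 1 cell. The 6 thick ascending limb genes summed to 578 and 362 CPM, beside 3505 and 1151 CPM. The 4 distal convoluted tubule genes, Wnk1 among them, had 599 and 291 CPM, beside 809 and 279 CPM. The 4 connecting tubule genes, S100g among them, summed to 781 and 3208 CPM, beside 898 and 1335 CPM. In KO the connecting tubule sum thus stood above that over all kept cells, and its source was not tested. Leaving out the 6 WT and 8 KO members with at least 10 UMIs of Emcn, Kdr, a C1q gene, Slc12a1, Slc12a3 or Slc34a1, chosen after the data were seen, gave 287 genes at least 2-fold higher and 288 at least 2-fold lower.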

How the data were processed

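The authors deposited 1 filtered matrix of UMI counts per library, with 31053 genes in each. Cell Ranger 3.1.0 is written in the matrices, per the file headers; version 3.0.2 of it, Seurat 3.1.1 and build mm10 stand in the submitters' processing notes. Strand handling and intron counting are not given in the sources used here. Members were found by the rule on UMIs in both matrices; the members and all gene lists were chosen with earlier results of these data known. UMIs were summed over the member cells of a library and divided by the sum over nuclear genes. Log2 ratios are KO over WT with 0.5 UMIs added to each sum; their intervals come from the exact conditional distribution of 2 Poisson sums, and shares carry exact Clopper-Pearson intervals. A gene reached the minimum of 50 UMIs only through 1 library where it would have missed it with both at the level of the lower one. A gene at 0 in WT was set against a floor of 3 UMIs in the WT sum. UMIs of 1 library are not replicates, so no p-value was computed.

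Named genes were the 12 highest and 12 lowest ratios of genes that reached 50 CPM and 50 UMIs where they were higher, with an interval that left out 0, UMIs in at least 10 members, at most 25% of them in 1 cell, and a level at least 0.5 times that of all kept cells, leaving out mitochondrial, ribosomal and haemoglobin genes, unnamed models and the 11 rule genes. Some of the genes found are not reported here. Those between cell types were the 10 highest and 10 lowest by the smaller ratio of both libraries. Doublets were called with Scrublet in scanpy 1.11.5 (seed 0) and kept. The ratios and intervals were tested on simulated Poisson sums, the model that the intervals assume. That test does not cover UMIs gathered in single cells. Alternatives changed the depth, mitochondrial, Atp6v1g3, principal gene, margin and doublet limits, the denominator, the weighting of cells, the UMIs added and the minimum sum. Those on 10 to 25% mitochondrial UMIs, on cells with UMIs of other types or of type A genes, and on the highest cell were added after seeing the data. Promoters came from RefSeq, GRCm38.p6.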

Additional observations from a re-analysis of the deposited data

Results flagged for a closer look

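Among the listed and named genes, 4 were found in which the KO to WT difference had opposite signs in the members and in type A cells, each at least 1.5-fold with a counting interval that left out 0; the difference between the cell types was not tested, since each library is 1 sample. For Adgrf5 the log2 ratio was 1.60 in the members and -0.92 in type A cells, a difference of 2.52. For Klf2, a flow-sensitive transcription factor best known in endothelium, it was 3.30 and -1.23, a difference of 4.53, with 35.3% of the KO UMIs in 1 cell. For Slc12a3, the cotransporter of the distal convoluted tubule, it was 4.02 and -1.49, a difference of 5.51, with 44 of 78 KO UMIs in 1 cell. For Emcn it was 2.10 and -1.10, a difference of 3.20, with 94.6% of the KO UMIs in 1 cell.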

How the results depend on the processing

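No paired analysis was possible because each genotype had 1 library, and the number 1 only names it. Both ratios of shares stayed below 1 under every alternative run, from 0.456 to 0.704 for kept barcodes and from 0.524 to 0.601 among sorted cells; the interval of the first reached 1.05 with 10 to 25% mitochondrial UMIs. The counts of genes at least 2-fold higher and lower, 350 and 322, were 624 and 154 with all UMIs as the denominator (80.2% of the called genes higher, against 52.1%), 74 and 83 after thinning to 2000 UMIs (1825 genes measured), 669 and 544 with a minimum of 20 UMIs, 192 and 198 with a minimum of 100, and 121 and 128 with 10 to 25% mitochondrial UMIs (53 cells each). With principal cell genes under 0.1% the higher count was 200, and 39.8% of the called genes were higher. Fewer genes were measured after thinning, with the minimum of 100 UMIs and in the 53 cells. No direction reversed among the named genes and lists that were called, a list being called with a median of at least 1 in size. Over the alternatives, 48 values of named genes fell outside their main counting interval and 336 inside. After thinning, 10 named genes fell outside it, and 8 in members without type A UMIs. Of the list medians, 30 moved past a set tolerance and 335 did not. The all-UMI denominator turned the median of the Notch list from -0.26 to 0.02 and that of glycolysis from -0.18 to 0.10. The injury median was 1.21 with 10 to 25% mitochondrial UMIs. With 1 library per genotype, depth limits the intervals, and variation between mice was not measured.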

Other observations

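S100g, the calcium-binding protein calbindin D9k of the connecting tubule, was spread unevenly over the members. It stood at 725 CPM in WT and 3064 CPM in KO, but the median cell held 1.14 and 1.26 UMIs per 10000 nuclear UMIs, and the highest cell 201 and 422. At equal depth it was found in 24.2% of WT and 40.2% of KO members. Calb1, calbindin D28k of the same segment, had 49.3 and 115.8 CPM, and was found in 4.69% and 8.20% of thinned members.

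Umod, the uromodulin gene of the thick ascending limb, was found more often in the members than in type A cells of the same library. At 2000 UMIs per cell it was detected in 30.5% (22.6 to 39.2%) of WT members and 6.02% (2.63 to 11.5%) of WT type A cells, and in 20.5% (13.7 to 28.7%) and 9.79% (6.79 to 13.5%) in KO. The proximal gene Slc34a1, by contrast, was detected in 11.7% and 13.5% in WT and in 3.28% and 2.45% in KO. Ptger3, a prostaglandin receptor that is also found in the thick ascending limb, had 97.8 and 69.3 CPM in the members, beside 43.6 and 56.9 CPM in type A cells.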
